A study of Homo sapiens with 12 samples.

Results

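The genes described here are 40 genes of late G2 and mitosis, followed across 12 RNA-seq libraries of HEK293T cells, an easily transfected human embryonic kidney line. They were taken by symbol from the 41878 gene rows of the raw count table, and each symbol that had several rows was represented by the row with the largest total. All 40 were among the 18030 rows that passed the expression filter and were tested. The study transfected the cells with 1 µg of an empty control vector or of a plasmid encoding TRPML3 (gene MCOLN3), a channel that lets cations out of endosomes and lysosomes. Before RNA extraction the cells were kept in 10% serum (fed) or without serum (0%) for 4 h (starved), a treatment the labels describe as a way to induce autophagy. This gave 4 groups, vector fed, vector starved, TRPML3 fed and TRPML3 starved, with 3 biological replicates each. All groups share the cell line, the transfection and the enrichment of polyadenylated RNA. The libraries come from unsorted cultures of 1 cell line. A change in the share of cells in G2 and mitosis therefore cannot be told apart from a change in mitotic RNA per cell.

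A cell that has copied its DNA enters mitosis when cyclin B bound to CDK1 is activated by CDC25 phosphatases. Polo-like and Aurora kinases, kinesin motors and kinetochore proteins then build the spindle, and the spindle checkpoint holds back the anaphase-promoting complex until every chromosome is attached. Most of these genes are transcribed periodically: complexes containing NF-Y, which binds CCAAT boxes, and DREAM or MuvB proteins, which bind the cell cycle homology region, keep them low in G1 and high in G2. HEK293T cells carry viral T antigen, which is known to interfere with p53 and retinoblastoma family proteins.

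Promoter sequences show the elements that the genes have in common. RefSeq promoters (GRCh38.p14) were found for 34 of the 40 genes, but not for AURKA, BIRC5, FOXM1, TPX2, TTK and UBE2C. The 250 bases before each annotated start were searched on both strands for the cell cycle homology region, written as TTTGAA or TTCGAA, and for CCAAT. Matches that overlapped each other were all counted. The homology region was present in 20 of 34 genes (58.8%), against 17.2% of the 27305 genes with a promoter window. CCAAT was present in 28 of 34 (82.4%), against 37.0% of all genes, and 18 of 34 (52.9%) carried both, against 6.24%. At least 2 CCAAT matches were found in 18 of 34 (52.9%), against 11.5%. In the bases from 50 before to 50 after the start, 23 of 34 genes (67.6%) had a homology region, against 6.24% of all genes. A match describes letters in a window and does not show that a factor binds there. The 120 bases before the start are printed for CDC20, CCNB1, PLK1, PRC1 and AURKB, on which the starvation comparison turns, and for CCNB2 and KIF11, which carry both elements. Their mean log2 differences between starved and fed cells were −0.05 ± 0.67 for CCNB2 and −0.06 ± 0.26 for KIF11 (SE). The CCNB2 value averages opposite differences. In both plasmids its starved library was above the same-numbered fed one in replicates 1 and 2 and below it in replicates 3. Capitals mark the matches, and ATTGG and TTCAAA are matches on the other strand.
CDC20: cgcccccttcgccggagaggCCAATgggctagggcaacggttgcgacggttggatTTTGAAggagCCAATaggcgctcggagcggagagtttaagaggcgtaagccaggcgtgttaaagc
CCNB1: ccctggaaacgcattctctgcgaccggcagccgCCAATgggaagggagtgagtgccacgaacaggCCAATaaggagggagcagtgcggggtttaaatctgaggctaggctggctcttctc
PLK1: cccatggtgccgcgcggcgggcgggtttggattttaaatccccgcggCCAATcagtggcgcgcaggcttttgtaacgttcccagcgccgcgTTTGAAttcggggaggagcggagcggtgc
PRC1: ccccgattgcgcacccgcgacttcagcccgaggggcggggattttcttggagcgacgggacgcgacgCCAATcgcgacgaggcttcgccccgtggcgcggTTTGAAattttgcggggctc
CCNB2: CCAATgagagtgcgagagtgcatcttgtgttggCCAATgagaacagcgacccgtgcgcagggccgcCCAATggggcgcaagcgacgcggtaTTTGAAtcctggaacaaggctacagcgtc
KIF11: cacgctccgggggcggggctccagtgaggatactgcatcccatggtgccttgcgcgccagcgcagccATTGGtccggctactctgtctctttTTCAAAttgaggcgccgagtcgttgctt
AURKB: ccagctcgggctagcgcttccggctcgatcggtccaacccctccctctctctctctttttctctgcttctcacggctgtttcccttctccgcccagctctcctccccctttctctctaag
The windows lie at chr1:43358861-43358980 (+ strand), chr5:69167030-69167149 (+ strand), chr16:23678769-23678888 (+ strand), chr15:90994536-90994655 (- strand), chr15:59105026-59105145 (+ strand), chr10:92593010-92593129 (+ strand) and chr17:8210226-8210345 (- strand). In PLK1, PRC1, CCNB2 and KIF11 the homology region lies downstream of the CCAAT box or boxes, near the start. The CDC20 window has 2 CCAAT matches with the homology region between them, and the CCNB1 window has 2 CCAAT matches and no homology region. The AURKB window holds neither element, and that gene has 1 CCAAT match further upstream.

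**Figure D1:**
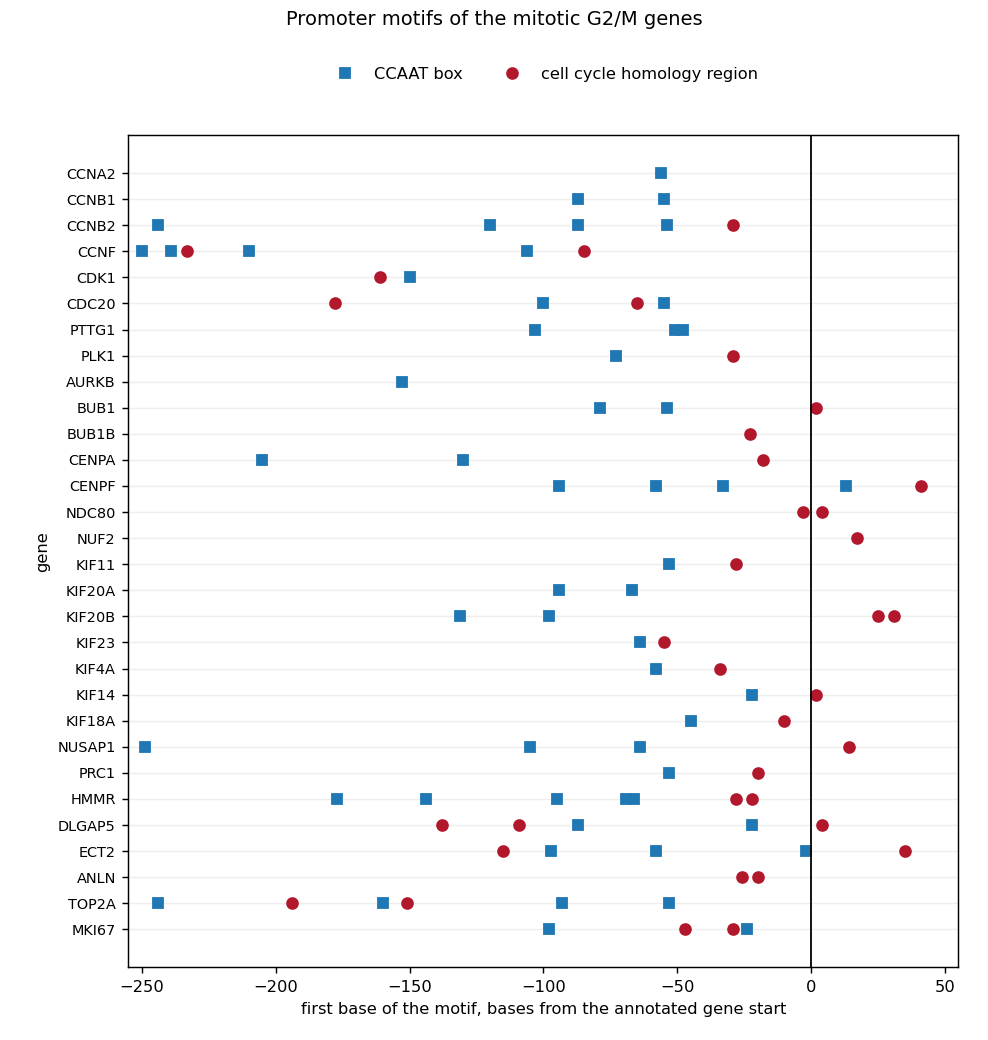
Position of each CCAAT match (blue squares) and cell cycle homology region match (red circles) in the 1st listed RefSeq promoter window of each gene with a match, in bases from the annotated start (vertical line). Most homology regions lie within 50 bases of the start and most CCAAT matches lie upstream of it.

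Library totals ran from 33101540 to 43700547 counts, so counting error is small for all but the lowest of these genes. The label check held: MCOLN3, the gene that encodes TRPML3, had 9.30 to 18.4 CPM (counts scaled to a common, TMM-adjusted library size) in the 6 vector libraries and 4926 to 58195 CPM in the 6 TRPML3 libraries. The markers NEFM and KRT8, known from HEK293 cells, were present in all libraries (91.9 to 176 CPM and 65.2 to 144 CPM), whereas the blood and endothelial genes PTPRC, CD3E, HBB, CDH5 and VWF had a median of 0 CPM. Of the fibroblast genes, COL1A1 had 0.22 to 20.6 CPM and COL1A2 at most 0.11 CPM. The share of counts from the mitochondrial genome followed the replicate number: it was 2.81 to 4.40% in replicates 1, 1.05 to 2.52% in replicates 2 and 4.83 to 5.70% in replicates 3. It did not follow serum, with 1.07 to 5.70% in fed and 1.05 to 5.69% in starved libraries.

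The 40 genes were expressed at very different levels. Divided by the length of the exon union (GENCODE release 29), the highest levels over the 12 libraries were 171 ± 39.8 CPM per kb (SD, n = 12) for CCNB1, the cyclin of the mitotic kinase, and 143 ± 18.5 CPM per kb for TPX2, the spindle assembly factor that activates Aurora A. BIRC5 (survivin), CDC20 and PTTG1 (securin) followed at 93.3 ± 14.9, 76.3 ± 15.3 and 72.9 ± 9.42 CPM per kb, with overlapping ranges over the libraries. PLK1, the polo-like kinase, was near the bottom at 6.60 ± 3.86 CPM per kb. ANLN (anillin, a scaffold of the contractile ring) had the lowest median in counts, with at most 1.95 CPM in 11 of 12 libraries. Together the 40 genes made up 6189 ± 388 CPM in vector fed, 6734 ± 630 in vector starved, 6504 ± 392 in TRPML3 fed and 7095 ± 433 in TRPML3 starved libraries (SD, n = 3). The counting used in the study is not stated to be stranded, and exons of 17 of the 40 genes overlap exons of another annotated gene, so that counts of those genes, among them CCNA2, PLK1, PRC1, NUSAP1 and ANLN, are uncertain to that extent.

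**Figure D2:**
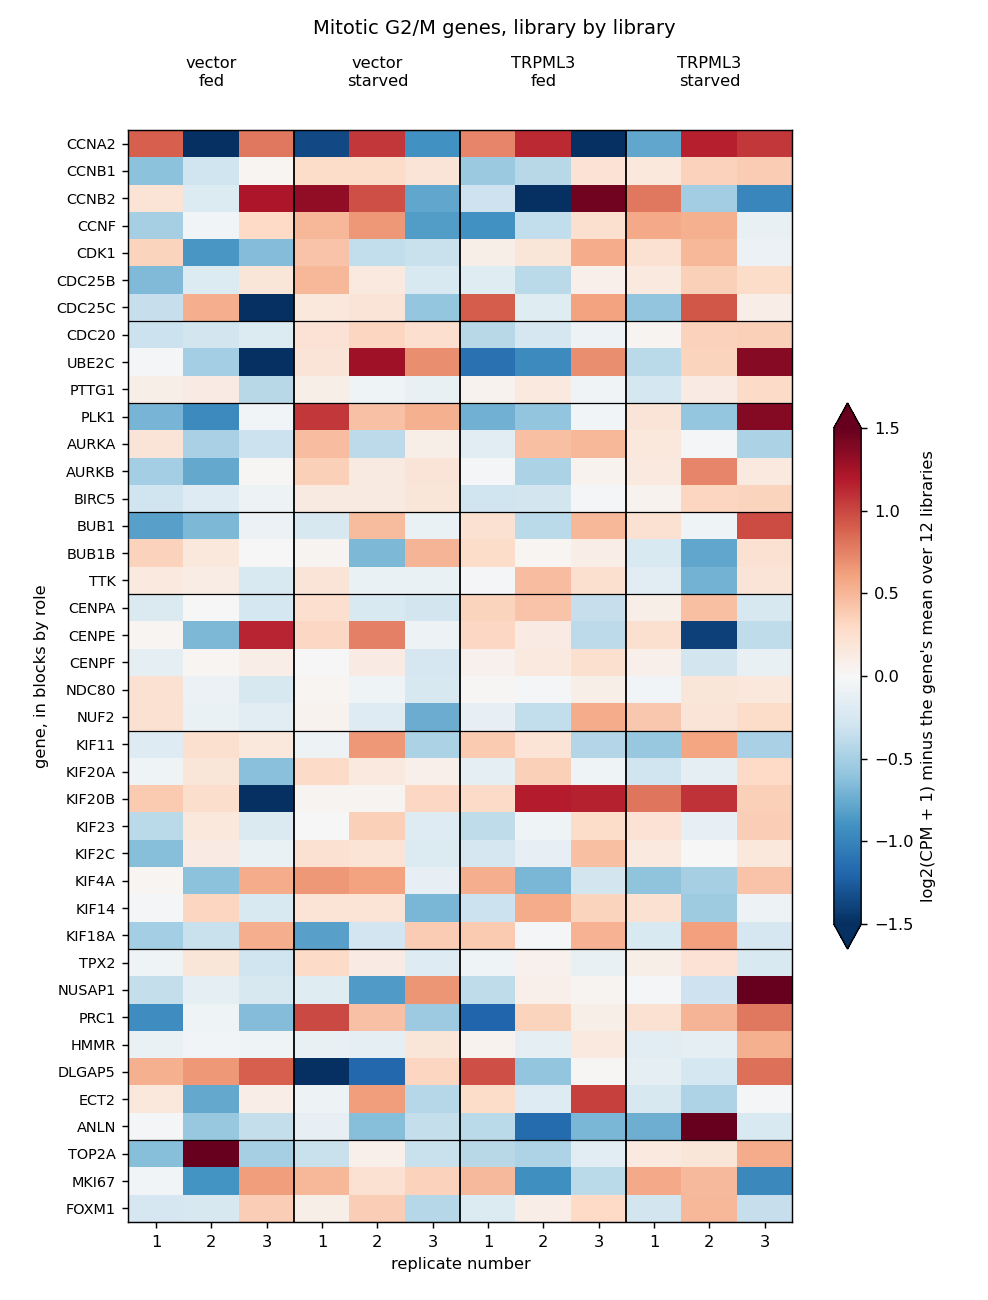
Deviation of each gene from its own mean over 12 libraries, as log2(CPM + 1), for 40 genes in blocks by role (rows) and 12 libraries in 4 groups (columns, replicate numbers at the bottom). Starved libraries are mostly above the mean in CDC20, BIRC5, CCNB1, PLK1 and AURKB, whereas CCNA2, CCNB2, KIF20B, ANLN and TOP2A vary between replicates of one group.

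Starvation was compared in both plasmids together. No member passed at an adjusted p under 0.05 (edgeR quasi-likelihood test, Benjamini-Hochberg over 18030 genes), as was the case for all genes tested (0% called, smallest adjusted p of a member 0.342). At an unadjusted p under 0.05, 8 of the 40 genes (20%) stood higher in starved libraries and 0 lower, against 4.66% of all genes higher and 4.79% lower (9.45% in either direction). The DESeq2 Wald test on the same counts called 2 members, CDC20 and BIRC5, both higher, with 1.51% of all genes called. The median log2 fold change of the 40 genes was 0.09, against 0.01 for all genes, and 24 of 40 were above 0. The p-values measure the spread between these libraries, and the median standard error of a member in this comparison was 0.23 on the log2 scale. The fit treats the 12 libraries as independent. Same-numbered vector and TRPML3 libraries of the same serum state deviated together, however (r of 0.095 to 0.33). The standard errors and p-values over both plasmids may therefore be too small.

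CDC20 and BIRC5 had the smallest unadjusted p of the members. CDC20 (ENSG00000117399.14), the activator of the anaphase-promoting complex, had 122, 126 and 132 CPM in vector fed and 177, 192 and 182 CPM in vector starved libraries (replicates 1, 2 and 3). In TRPML3 cells it had 114, 128 and 144 CPM fed and 157, 194 and 196 CPM starved. All 6 starved libraries were thus above all 6 fed libraries. The log2 fold change was 0.52 ± 0.10 (SE, unadjusted p 0.000451, adjusted p 0.342 by edgeR, 0.000488 by DESeq2). It was 0.53 ± 0.15 in vector and 0.50 ± 0.15 in TRPML3 cells, and over 15 fits with fewer libraries, each without 1 library or without 1 replicate number, it stayed between 0.47 and 0.57.

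BIRC5 (ENSG00000089685.15, chr17:78214186-78225636 in GENCODE release 29, GRCh38), the survivin subunit of the chromosomal passenger complex, also had its fed and starved libraries apart. It had 286, 308 and 333 CPM in vector fed, 387, 385 and 400 CPM in vector starved, 286, 290 and 346 CPM in TRPML3 fed and 365, 441 and 444 CPM in TRPML3 starved libraries. Every starved library was above every fed one. The log2 fold change was 0.39 ± 0.09 (unadjusted p 0.00165, adjusted p 0.349 by edgeR and 0.0196 by DESeq2).

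AURKB, the kinase that survivin helps to position, was the third gene without overlap. It had 18.1, 15.0 and 26.4 CPM in vector fed, 33.6, 28.7 and 30.1 CPM in vector starved, 25.6, 18.5 and 27.2 CPM in TRPML3 fed and 28.9, 43.9 and 28.9 CPM in TRPML3 starved libraries. The gap was narrow, from 27.2 CPM in the highest fed to 28.7 CPM in the lowest starved library. Its log2 fold change was 0.58 ± 0.20 (unadjusted p 0.0152, adjusted p 0.419 by edgeR), and it was 0.32 without replicates 2 of all groups and 0.83 without replicates 3. Such a gap between all 6 starved and all 6 fed libraries was found in 3 of 40 members (7.5%), all higher, against 0.754% of all genes higher and 0.499% lower. Because same-numbered libraries of the same serum state deviated together, the 6 libraries of a serum state are not 6 independent ones.

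CCNB1 had 277, 345 and 432 CPM in vector fed, 514, 516 and 486 CPM in vector starved, 290, 318 and 495 CPM in TRPML3 fed and 475, 542 and 553 CPM in TRPML3 starved libraries. In 5 of 6 fed libraries it was below every starved library, and TRPML3 fed replicate 3 overlapped. This gave a log2 fold change of 0.52 ± 0.15 (unadjusted p 0.00624, adjusted p 0.363 by edgeR).

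PLK1, whose kinase activity promotes mitotic entry and spindle assembly, had 16.6, 13.7 and 26.8 CPM in vector fed and 58.3, 37.7 and 40.3 CPM in vector starved libraries. In TRPML3 cells it had 16.3, 17.9 and 26.8 CPM fed and 31.5, 18.1 and 72.7 CPM starved. The vector groups did not overlap, and in TRPML3 cells starved replicate 2 was as low as fed libraries. The fitted log2 fold change was 1.13 ± 0.34 (unadjusted p 0.00663, adjusted p 0.363 by edgeR).

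UBE2C, the ubiquitin-conjugating enzyme of the anaphase-promoting complex, had 29.7, 21.1 and 9.81 CPM in vector fed, 34.8, 74.5 and 49.6 CPM in vector starved, 13.4, 15.2 and 49.7 CPM in TRPML3 fed and 22.7, 38.6 and 79.7 CPM in TRPML3 starved libraries. Fed and starved libraries overlapped, and the log2 fold change was 1.12 ± 0.45 (unadjusted p 0.0297, adjusted p 0.467 by edgeR). PRC1, which bundles microtubules of the central spindle, ranged from 81.3 to 234 CPM in fed and from 127 to 371 CPM in starved libraries and also overlapped, with a log2 fold change of 0.79 ± 0.31 (unadjusted p 0.0286, adjusted p 0.466 by edgeR). Of the 15 fits with fewer libraries, 9 kept UBE2C and 9 kept PRC1 at an unadjusted p under 0.05, whereas CDC20 kept it in 15, BIRC5 and PLK1 in 14 and CCNB1 and AURKB in 13.

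The 8th member at an unadjusted p under 0.05, ANLN, rests on 1 library. TRPML3 starved replicate 2 had 116 CPM, and the other 11 libraries had 0.34 to 1.95 CPM. Its log2 fold change was 2.74 ± 1.02 with that library and 0.21 ± 0.39 without it.

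**Figure D3:**
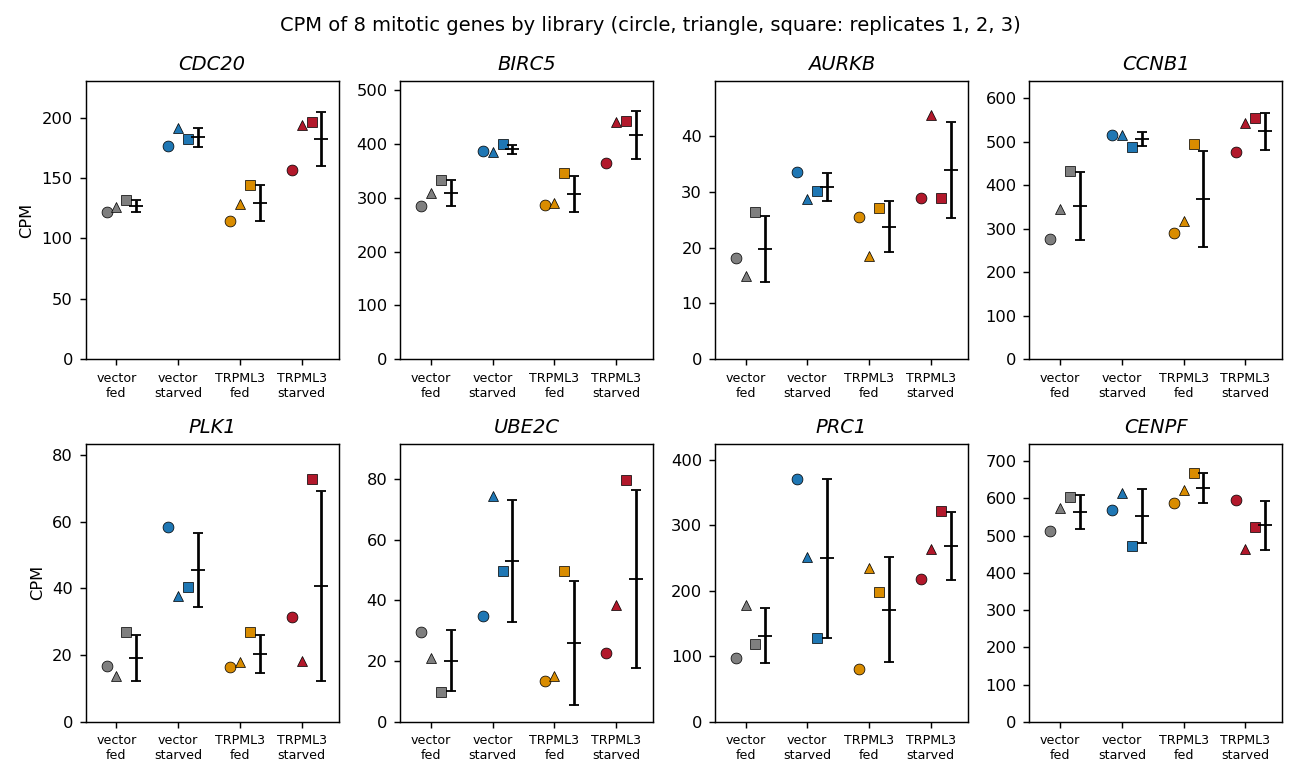
CPM of CDC20, BIRC5, AURKB, CCNB1, PLK1, UBE2C, PRC1 and, for comparison, the kinetochore gene CENPF, by group and replicate (symbols), with the mean ± SD of 3 libraries (black). CDC20, BIRC5 and AURKB do not overlap between fed and starved libraries, and CENPF ranges from 465 to 669 CPM with overlap.

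Values by role are descriptions over 3 to 8 genes, with no test between roles. Among the 4 mitotic kinases and passenger proteins the median log2 fold change was 0.48, with AURKA, the centrosomal Aurora kinase, at −0.05 ± 0.21. The 3 genes of the anaphase-promoting complex and its target had a median of 0.52, with PTTG1, the securin that the complex degrades, at 0.02 ± 0.14. In the cyclin and CDK group of 7 genes the median was 0.10. CDK1 stood at 0.10 ± 0.24, and CDC25B, a phosphatase that activates it, at 0.40 ± 0.19.

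The 7 spindle and cytokinesis factors had a median of 0.11 and a wide range, from −0.70 ± 0.41 for the spindle protein DLGAP5, the lowest of all members, to ANLN, with PRC1 as given above and ECT2 at −0.24 ± 0.26. The 8 kinesins had a median of 0.11 and a range from −0.21 (KIF14) to 0.20 (KIF23), with KIF11, the motor that separates spindle poles, at −0.06 ± 0.26. The 5 centromere and kinetochore genes ranged from −0.20 (CENPE) to 0.02 (CENPA), and CENPF stood at −0.14 ± 0.10. Of the 3 checkpoint genes, BUB1 was at 0.43 ± 0.24 (0.25 without TRPML3 starved replicate 3), while BUB1B (BUBR1), which inhibits the anaphase-promoting complex, and the kinase TTK (MPS1) were at −0.24 ± 0.22 and −0.22 ± 0.16. MKI67, the proliferation antigen that coats mitotic chromosomes, was at 0.34 ± 0.34, TOP2A, the topoisomerase that disentangles chromosomes, at −0.14 ± 0.39, and FOXM1, a transcription factor of G2/M genes, at −0.01 ± 0.22. None of the kinesin, centromere, checkpoint, chromosome and transcription genes had an unadjusted p under 0.05, against 9.45% of all genes in either direction. With so few genes, this count does not set these roles apart from all genes or from the other roles.

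**Figure D4:**
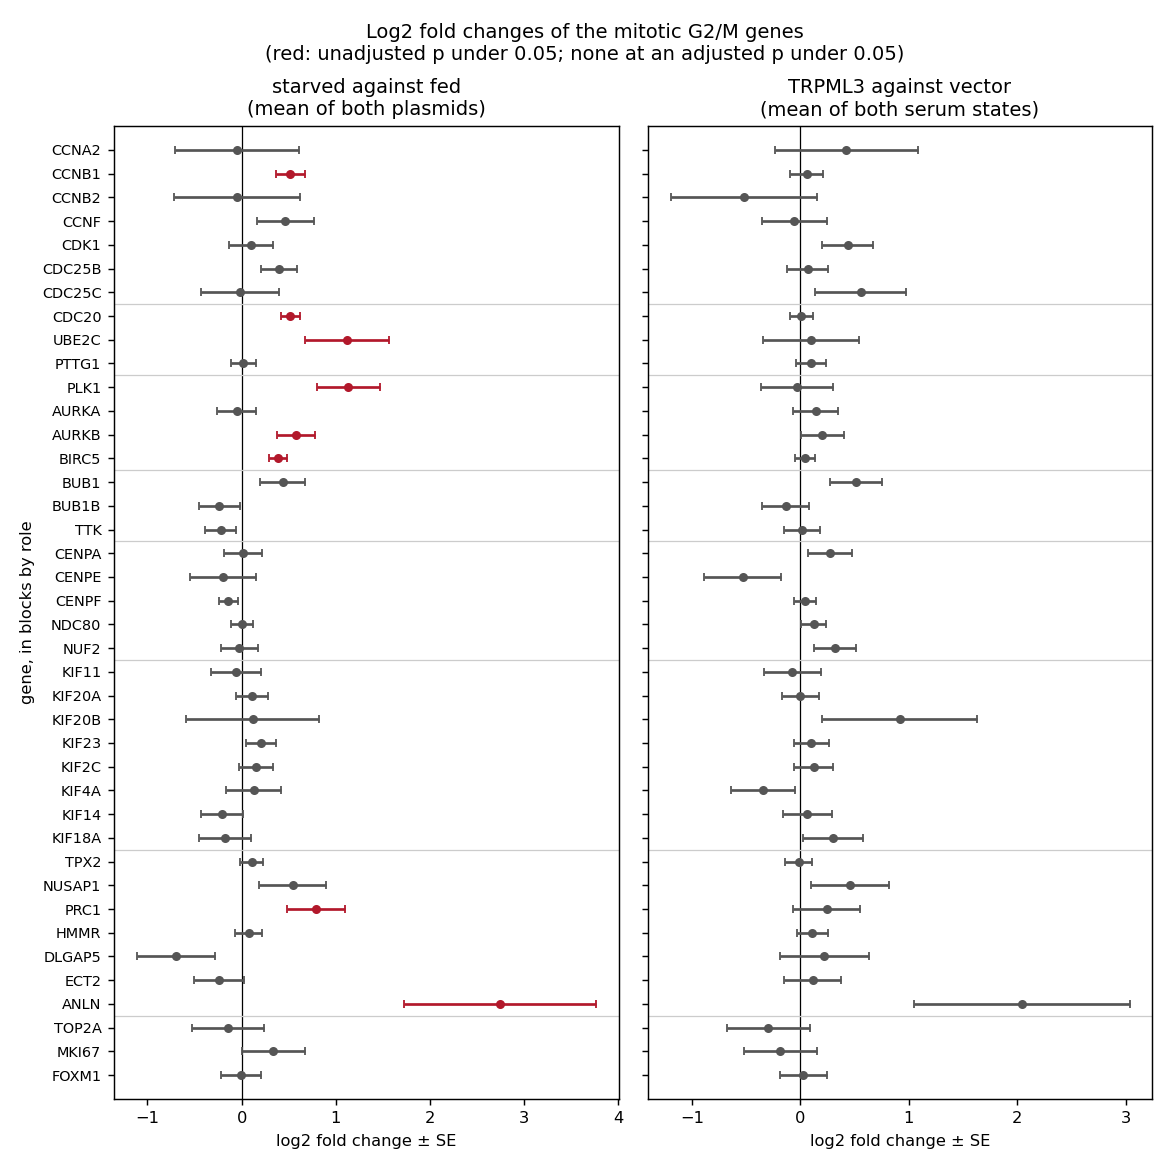
Log2 fold changes ± SE of the 40 genes for starved against fed cells (left) and TRPML3 against vector (right), each averaged over the other factor, in blocks by role. Genes in red have an unadjusted p under 0.05, which 8 genes had on the left and 0 on the right, and no gene passed at an adjusted p under 0.05.

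Within each plasmid the comparison has 3 libraries against 3. In vector cells 0 members passed the adjusted threshold by edgeR (0.00555% of all genes called) and 0 by DESeq2 (0.238%). At an unadjusted p under 0.05, 5 members were higher (2.23% of all genes) and 1 lower (2.21%). The 5 were CDC20, BIRC5, CCNB1, AURKB and PLK1. The lower one, DLGAP5, had 119, 129 and 154 CPM fed and 19.2, 35.9 and 103 CPM starved, with a log2 fold change of −1.35 ± 0.59 (unadjusted p 0.0442 by edgeR), which was −2.28 without vector starved replicate 3 and −0.95 without vector starved replicate 1. Libraries did not overlap in 6 members that were higher (5.36% of all genes), the same 5 and UBE2C, and in 1 that was lower (4.57%), DLGAP5. The highest values were 1.39 ± 0.64 for UBE2C, 1.26 ± 0.48 for PLK1 and 0.93 ± 0.44 for PRC1, and TOP2A and CCNA2, described with the variable genes, were lowest after DLGAP5 at −0.93 ± 0.55 and −0.34 ± 0.93. The member median was 0.22, against −0.01 over all genes, and 29 of 40 were above 0.

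In TRPML3 cells 0 members passed by edgeR (0% of all genes called) and 0 by DESeq2 (0.494%). At an unadjusted p under 0.05, 4 members were higher and 0 lower, against 2.74% and 2.97% of all genes. These were CDC20, BIRC5, CCNB1 and ANLN, the last through the 1 library named above: its log2 fold change of 5.59 ± 1.63 was 0.51 ± 0.58 without it. Libraries did not overlap in 5 members that were higher (5.56% of all genes), CDC20, BIRC5, AURKB, CDC25B and TOP2A, and in 0 that were lower (5.66%). After ANLN the highest values were PLK1 at 1.00 ± 0.47 and UBE2C at 0.85 ± 0.63, which were 0.28 and 0.22 without TRPML3 starved replicate 3. The lowest were ECT2, an activator of the small GTPase RhoA in cytokinesis, at −0.70 ± 0.37, TTK at −0.43 ± 0.23 and CENPE, a kinetochore motor, at −0.41 ± 0.50. The member median was 0.06, against 0.01 over all genes. The test of the difference between the plasmids' responses called 0 members by edgeR (0% of all genes) and 0 by DESeq2 (0.15%), and at an unadjusted p under 0.05 it named 1 member (2.07% of all genes), ANLN again. Its log2 difference of 5.69 ± 2.04 was 0.61 ± 0.78 without TRPML3 starved replicate 2. The next highest were TOP2A at 1.58 ± 0.78 (0.26 ± 0.27 without vector fed replicate 2) and DLGAP5 at 1.30 ± 0.82, and the lowest were ECT2 at −0.92 ± 0.53, AURKA at −0.65 ± 0.41 and UBE2C at −0.54 ± 0.88. Of the 40 members 28 were below 0, with a median of −0.14 against 0.00 over all genes. CDC20 stood at −0.03, BIRC5 at 0.10, CCNB1 at −0.02 and PLK1 at −0.25. The starvation comparisons in vector and TRPML3 cells share no library but are not independent. Same-numbered vector and TRPML3 libraries of the same serum state deviated together, with r up to 0.33.

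Counted library by library, between 14 and 17 of the 40 genes were above their own 12-library median in 5 of the 6 fed libraries, and between 23 and 28 in 5 of the 6 starved ones. The exceptions were both replicates 3: TRPML3 fed replicate 3 had 24 and vector starved replicate 3 had 15. The same count was not made over all genes tested, so these numbers describe the members only. With replicates 3 left out of all groups, edgeR called 3 members for starvation over both plasmids, CCNB1 at 0.75 (adjusted p 0.0292), CCNF at 1.02 (0.0397) and CDC20 at 0.56 (0.0496), with 4.49% of all genes called. Without replicates 1 (0.00547% of all genes called) or replicates 2 (0%), 0 members were called. CCNF, the cyclin F subunit of a ubiquitin ligase, had 35.9, 49.7 and 62.8 CPM in vector fed, 72.3, 80.7 and 28.0 CPM in vector starved, 26.8, 39.2 and 60.3 CPM in TRPML3 fed and 76.2, 74.1 and 47.0 CPM in TRPML3 starved libraries. In replicates 1 and 2 its starved values were all above its fed values, and in replicates 3 they were below. Replicates 3 are also the libraries with the highest mitochondrial share, whose part in the result was not tested.

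The plasmid comparison asks whether the channel changes these genes, and it uses the same libraries as the starvation comparisons, so that the values are not independent of those above. In fed cells 0 members passed by edgeR (0.0111% of all genes called) and 0 by DESeq2 (0.166%), and 0 had an unadjusted p under 0.05 (2.21% of all genes) or groups without overlap (3.22% higher and 3.87% lower). The largest differences in fed cells were KIF20B at 1.18 ± 1.01, CDC25C at 0.78 ± 0.59 and BUB1 at 0.65 ± 0.34, and the lowest were TOP2A at −1.08 ± 0.55, ANLN at −0.81 ± 1.38 and DLGAP5 at −0.43 ± 0.58. Without vector fed replicate 3 CDC25C stood at 0.36 ± 0.53, and without TRPML3 fed replicate 2 DLGAP5 stood at −0.12. In starved cells 0 members passed by edgeR (0.00555% of all genes called) and 0 by DESeq2 (0.238%), and 1 had an unadjusted p under 0.05 (2.20%), ANLN, at 4.89 ± 1.57 and at −0.19 ± 0.59 without TRPML3 starved replicate 2. The next highest were DLGAP5 at 0.87 ± 0.58 and NUSAP1 at 0.75 ± 0.51 (−0.18 ± 0.37 without TRPML3 starved replicate 3), and the lowest were CCNB2 at −0.79 ± 0.95, CENPE at −0.75 ± 0.50 (−0.42 ± 0.50 without TRPML3 starved replicate 2) and the chromokinesin KIF4A at −0.57 ± 0.42. Libraries did not overlap in 3 members that were higher with TRPML3 (3.02% of all genes), TOP2A, NUF2 and KIF20B, and in 0 that were lower (3.56%). NUF2, a subunit of the NDC80 complex that grips microtubules, had 68.5, 57.7 and 39.0 CPM in vector and 88.1, 75.9 and 80.1 CPM in TRPML3 starved libraries.

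Averaged over serum, the TRPML3 effect called 0 members by edgeR (0.0111% of all genes) and 0 by DESeq2 (0.161%), 0 at an unadjusted p under 0.05 (2.62%) and 0 without overlap (0.0610% higher, 0.0943% lower). The highest values were ANLN at 2.04 ± 0.99 (−0.50 ± 0.40 without TRPML3 starved replicate 2), KIF20B at 0.91 ± 0.71 and CDC25C at 0.55 ± 0.42, and the lowest were CENPE at −0.53 ± 0.35 (−0.21 ± 0.31 without vector fed replicate 3), CCNB2 at −0.52 ± 0.67 and KIF4A at −0.34 ± 0.29. For 5 of the genes with the smallest unadjusted p after starvation, the plasmid differences were 0.01 ± 0.10 for CDC20, 0.04 ± 0.09 for BIRC5, 0.06 ± 0.15 for CCNB1, −0.03 ± 0.33 for PLK1 and 0.20 ± 0.20 for AURKB. The member median was 0.10, against −0.01 over all genes, and 29 of 40 were above 0. With libraries scaled by their total alone, the member median was −0.01, and the median of all genes shifted down too. This member median is therefore not to be set against the all-gene median given above.

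Several members differed more between replicates than between conditions. The highest library was over 5 times the lowest in 11 of 40 genes (27.5%), against 23.2% of the 9156 tested genes with a mean of at least 10 CPM, and over 10 times in 4 (10%), against 12.1%. The median ratio was 2.52 for the members and 2.53 for those genes. KIF20B, a kinesin of late cytokinesis, had 1.38 CPM in vector fed replicate 3 and 145 to 321 CPM in the other 11 libraries. Without that library its difference between TRPML3 and vector in fed cells was 0.60 ± 0.30 rather than 1.18 ± 1.01.

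TOP2A had 1192 CPM in vector fed replicate 2 and 208 to 476 CPM elsewhere. Leaving that library out turned its starvation difference in vector cells from −0.93 ± 0.55 to 0.38 ± 0.20, and its TRPML3 difference in fed cells from −1.08 ± 0.55 to 0.23 ± 0.20. NUSAP1, a spindle-associated protein, had 491 CPM in TRPML3 starved replicate 3 and 83.2 to 238 CPM elsewhere, and its starvation difference was 0.54 ± 0.36 with and 0.09 ± 0.25 without that library.

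The A and B cyclins did not vary together. CCNA2, the cyclin that acts in S phase and G2, had 268, 29.6 and 247 CPM in vector fed, 55.2, 300 and 75.8 CPM in vector starved, 238, 312 and 47.6 CPM in TRPML3 fed and 83.2, 322 and 300 CPM in TRPML3 starved libraries. It had 29.6 to 83.2 CPM in 5 libraries and 238 to 322 CPM in 7, and every group held both kinds. CCNB2, a second B cyclin, had 59.3, 44.6 and 120 CPM in vector fed, 131, 101 and 29.7 CPM in vector starved, 41.2, 4.89 and 142 CPM in TRPML3 fed and 89.5, 35.6 and 25.7 CPM in TRPML3 starved libraries. By comparison, CCNB1 ranged from 277 to 553 CPM over the same libraries.

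**Figure D5:**
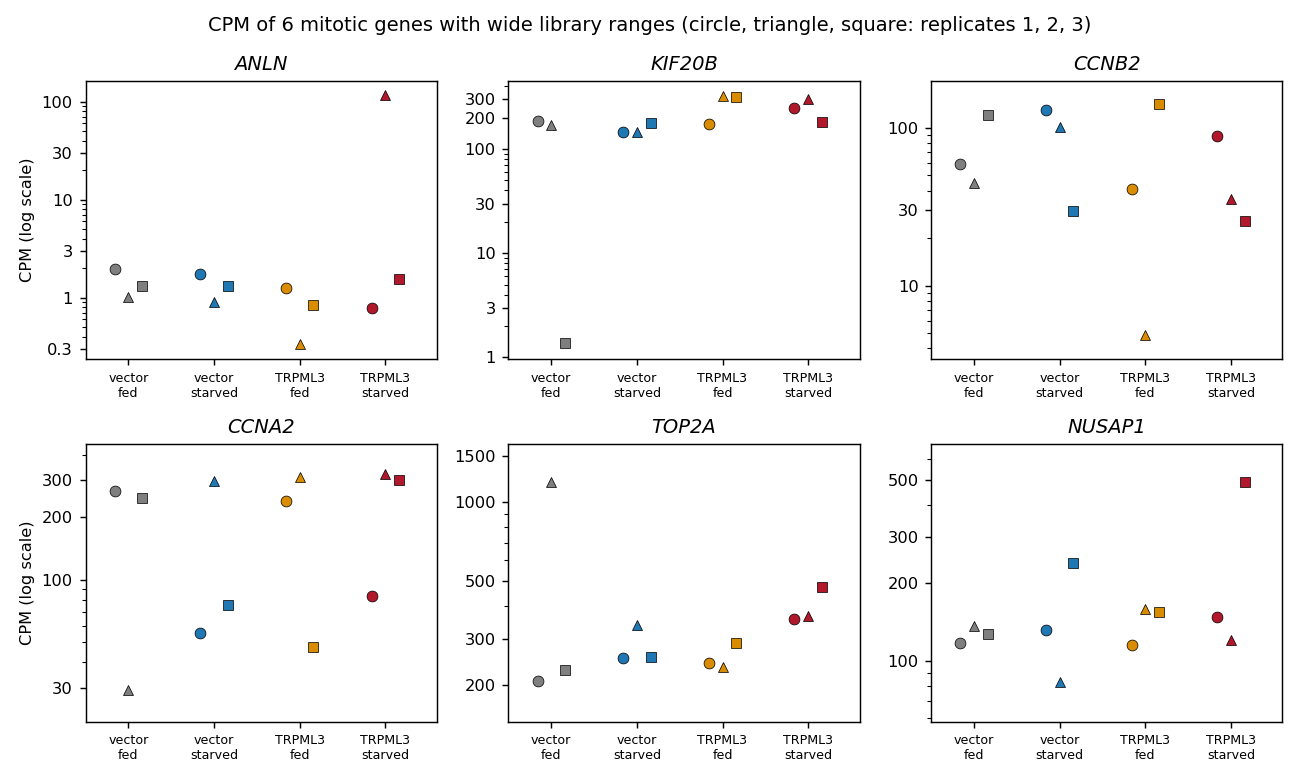
CPM on a log scale for ANLN, KIF20B, CCNB2, CCNA2, TOP2A and NUSAP1 by group and replicate (symbols). A single library stands apart in ANLN (116 CPM), KIF20B (1.38 CPM), TOP2A (1192 CPM) and NUSAP1 (491 CPM), and CCNA2 has a low and a high set of libraries in each group.

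Genes that work with the 40 were counted from 4 lists for starvation over both plasmids, and 0 genes of any list passed the adjusted threshold by edgeR. At an unadjusted p under 0.05, 4.66% of all genes were higher and 4.79% lower, and the counts of each list are to be read beside these shares. Of 77 mitotic partner genes, 5 were higher and 2 lower at an unadjusted p under 0.05, with a median log2 fold change of 0.11. Those higher included UBE2S, which extends ubiquitin chains on targets of the anaphase-promoting complex, at 0.40 ± 0.12, the condensin subunit SMC4 at 0.39 ± 0.12 and the cohesin protector CDCA5 (sororin) at 0.49 ± 0.14. CEP55, a midbody protein, stood at −0.42 ± 0.15. The list's extremes were NCAPH at 0.71 ± 0.34 and MAD1L1 at 0.66 ± 0.59, and NCAPD2 at −0.96 ± 0.70 and SPC25 at −0.72 ± 0.36.

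Of 28 genes for the transcriptional control of the members, 2 were higher and 3 lower at an unadjusted p under 0.05, with a median of −0.07. NFYA, the regulatory subunit of the CCAAT-binding factor NF-Y, had at most 128 CPM in fed and 4.76 to 70.0 CPM in starved libraries, which overlapped, with a log2 fold change of −1.97 ± 0.58 (unadjusted p 0.00618, adjusted p 0.363 by edgeR). MYBL2 (B-MYB), which works with the MuvB core in G2, stood at 0.71 ± 0.31 and RBBP4, a MuvB subunit, at 0.37 ± 0.12, while the p53 target GADD45A stood at −0.74 ± 0.27.

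Of 43 G1/S and replication genes tested, 3 were higher and 2 lower at an unadjusted p under 0.05, with a median of 0.03. MCM7, a subunit of the replicative helicase, had 314 to 464 CPM in fed and 503 to 586 CPM in starved libraries without overlap (0.754% of all genes higher), a log2 fold change of 0.47 ± 0.11 (unadjusted p 0.00136, adjusted p 0.347 by edgeR). RFC5 stood at 1.00 ± 0.53, UHRF1 at −1.08 ± 0.82 and CCNE2 at −0.78 ± 0.60. Of 17 immediate early serum genes, 1 was higher and 1 lower at an unadjusted p under 0.05, with a median of −0.17. MYC had 68.3 to 127 CPM in fed and 139 to 167 CPM in starved libraries, without overlap (0.55 ± 0.16), and KLF10 stood at −0.85 ± 0.28. CCN2 and EGR3, the remaining extremes of that list, had at most 28.9 and 11.8 CPM and were at 0 CPM in some libraries.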

How the data were processed

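RNA was sequenced from 12 libraries in 4 groups of 3, grouped by the sample titles. The authors deposited raw counts per gene and a normalized signal (counts divided by a size factor of each library). The submitters' processing notes name FastQC, fastp, HISAT2, StringTie and DESeq2, without versions, and GRCh38. Strandedness, annotation release and the program that wrote the counts are not given in the sources used here, so the counts may be rounded estimates. Raw counts were tested with edgeR 4.0.16 in R 4.3.3 (TMM, filterByExpr by group, robust quasi-likelihood fit over all 12 libraries with 8 residual degrees of freedom, Benjamini-Hochberg adjustment over 18030 genes at 0.05). CPM use TMM-adjusted library sizes, and the pseudocount on log2 values is 1. DESeq2 1.42.0, limma-trend 3.58.1 on the log2 of the deposited signal + 1, scalings, filters, a replicate block and fits without libraries were alternatives. Same-numbered vector and TRPML3 libraries had deviations correlated at r of 0.11, 0.15 and 0.33 in fed and 0.13, 0.095 and 0.32 in starved cells. Across serum states r lay between −0.076 and 0.0075. Over all genes tested, replicate numbers thus went with shared deviations between plasmids in both serum states, and not between serum states. The mitochondrial share, by contrast, followed the replicate number in fed and starved libraries alike. The main fit took no account of the numbers, and the replicate block was an alternative to it. That block gives each number 1 offset common to all 4 groups. It therefore cannot take up deviations that are shared within a serum state only. Genes named are MCOLN3 as a check of the labels, representatives of each role, the 3 highest and 3 lowest log2 fold changes per comparison, those at an adjusted p under 0.05, and 2 highest and 2 lowest of each further list. Members at an unadjusted p under 0.05, without overlap of libraries or with a library that stands apart, and other list genes, were named after their values were seen. The members, the lists and these rules were chosen with earlier results of these data known.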

Additional observations from a re-analysis of the deposited data

How the results depend on the processing

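No member was called in any of the 7 comparisons under other scalings, filters, the replicate block (0 members called for starvation over both plasmids), limma-trend or the libraries of a comparison alone. The DESeq2 Wald test called 2 members for starvation over both plasmids, and leaving out libraries gave 0 to 3, with 3 only without replicates 3 of all groups. The member median moved beyond the replicate spread of 0.173 only when libraries were left out: it ran from 0.033 to 0.29 for starvation in vector cells and from −0.22 to 0.078 for the difference between plasmids, and the values of 0.033 and 0.078 came without replicates 1. With libraries scaled by their total alone, the median of all genes shifted by −0.04 to −0.11, and the member medians for TRPML3 in starved cells, starvation in TRPML3 cells and TRPML3 over both serum states turned from positive to −0.01, −0.02 and −0.01. Several directions turned when libraries were left out. Without 1 library CCNB2 turned from −0.25 to 0.29 and CENPE from −0.32 to 0.33 for TRPML3 in fed cells, and KIF20B from 0.39 to −0.19 for starvation in vector cells. For starvation over both plasmids AURKA ran from −0.22 to 0.065, CDK1 from −0.058 to 0.33, ECT2 from −0.61 to 0.081, FOXM1 from −0.32 to 0.36, KIF11 from −0.42 to 0.11, MKI67 from −0.019 to 0.69 and TOP2A from −0.34 to 0.51, with TOP2A also at 0.088 under limma-trend. For starvation in vector cells CCNA2 ran from −1.97 to 0.41 and TOP2A from −1.32 to 0.38. For TRPML3 over both serum states ANLN ran from −0.52 to 2.36, and in starved cells from −0.41 to 5.70. Further ranges were NUSAP1 from −0.18 to 1.24 for TRPML3 in starved cells, TOP2A from −1.54 to 0.29 for TRPML3 in fed cells and UBE2C from −1.18 to 0.32 for the difference between plasmids. With 3 libraries a group, even differences of several standard errors did not pass the adjusted threshold by edgeR. For starvation over both plasmids CDC20 at 0.52 ± 0.10 had an adjusted p of 0.342, and PLK1 at 1.13 ± 0.34 had 0.363. A count of 0 members called therefore does not show that the genes were unchanged. Totals of over 33101540 counts mean that depth limits mainly ANLN, with as few as 13 counts in a library. The causes of these changes were not tested.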
